A study of Homo sapiens with 4 samples.

Results

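The genes of fatty acid oxidation, and the peroxisome proliferator-activated receptors (PPARs) that control many of them, were followed in PANC-1 cells after depletion of SIRT1. The set held 33 genes, chosen by symbol: 3 PPAR factors, 3 PPAR targets, 4 acyl-CoA synthetases, 3 carnitine acyltransferases, 4 mitochondrial acyl-CoA dehydrogenases, 6 mitochondrial hydratases, dehydrogenases and thiolases, 3 auxiliary enzymes for unsaturated fatty acids, 3 genes of the electron transfer flavoprotein system and 4 peroxisomal enzymes. All 33 were found among the 16878 genes listed. The rule used symbols and no measured value, but the set was chosen with earlier results of these data known.

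PPARs are nuclear receptors that bind fatty acids and, with a retinoid X receptor, occupy direct repeats in the DNA of genes for lipid storage and fatty acid use. Before oxidation, a fatty acid is activated to an acyl-CoA, carried into the mitochondrion as an acylcarnitine, and shortened in repeated cycles of dehydrogenation, hydration, a further dehydrogenation and thiolysis, while electrons leave through the electron transfer flavoprotein. Peroxisomes run a parallel cycle on very long and branched chains. SIRT1 is an NAD-dependent deacetylase, and PPAR coactivators are among its known substrates in metabolic tissues.

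The cells were PANC-1, an established human line from a ductal carcinoma of the pancreas. There were 2 groups of 2 libraries: Control, and siSIRT1, which received small interfering RNA (siRNA) against SIRT1, with RNA-seq at 48 h. The knockdown used 1 siRNA sequence in 1 cell line, so an effect of that sequence on other transcripts cannot be told apart from the loss of SIRT1. The labels do not say whether the libraries of a group came from separate cultures, and p-values measure only the spread between these libraries, which may be technical. In such bulk RNA, fewer cells that express a gene and less of its RNA per cell cannot be told apart.

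Levels are given in FPKM, counted fragments divided by transcript length and by the mapped total of each library, so that genes can be compared per length. Estimated depth ran from 8810000 to 9170000 reads per library, and summed FPKM from 397094 to 426279. SIRT1 was at 10.5 and 10.3 FPKM in Control, against 1.80 and 2.05 FPKM under siSIRT1, a log2 fold change of -1.96 (limma, adjusted p = 1.33e-05). Of 7 markers of a ductal cancer line, KRT8, KRT18, KRT19 and VIM were above 300 FPKM in each library. SOX9 lay between 40.2 and 63.7 FPKM, EPCAM between 5.34 and 11.2 FPKM, and KRT7 between 2.89 and 4.04 FPKM. PTPRC, PECAM1 and PRSS1, which mark leukocytes, endothelium and acinar cells, were between 0 and 1.29 FPKM. Of these 7, SOX9 (log2 fold change -0.60, adjusted p = 0.00021) and VIM (-0.53, adjusted p = 0.00126) were lower in siSIRT1. KRT18 (0.26, adjusted p = 0.035) and KRT19 (0.24, adjusted p = 0.0178) were higher, but did not pass under median-of-ratios scaling (adjusted p = 0.244 and 0.159) or without Control replicate 1 (0.291 and 0.139) or Control replicate 2 (0.489 and 0.263). VIM did not pass without Control replicate 1 (adjusted p = 0.0879). KRT8 (0.25, adjusted p = 0.0513), EPCAM (0.52, adjusted p = 0.0555) and KRT7 (-0.10, adjusted p = 0.647) did not pass. Whether these marker values bear on the genes below was not tested.

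**Figure D1:**
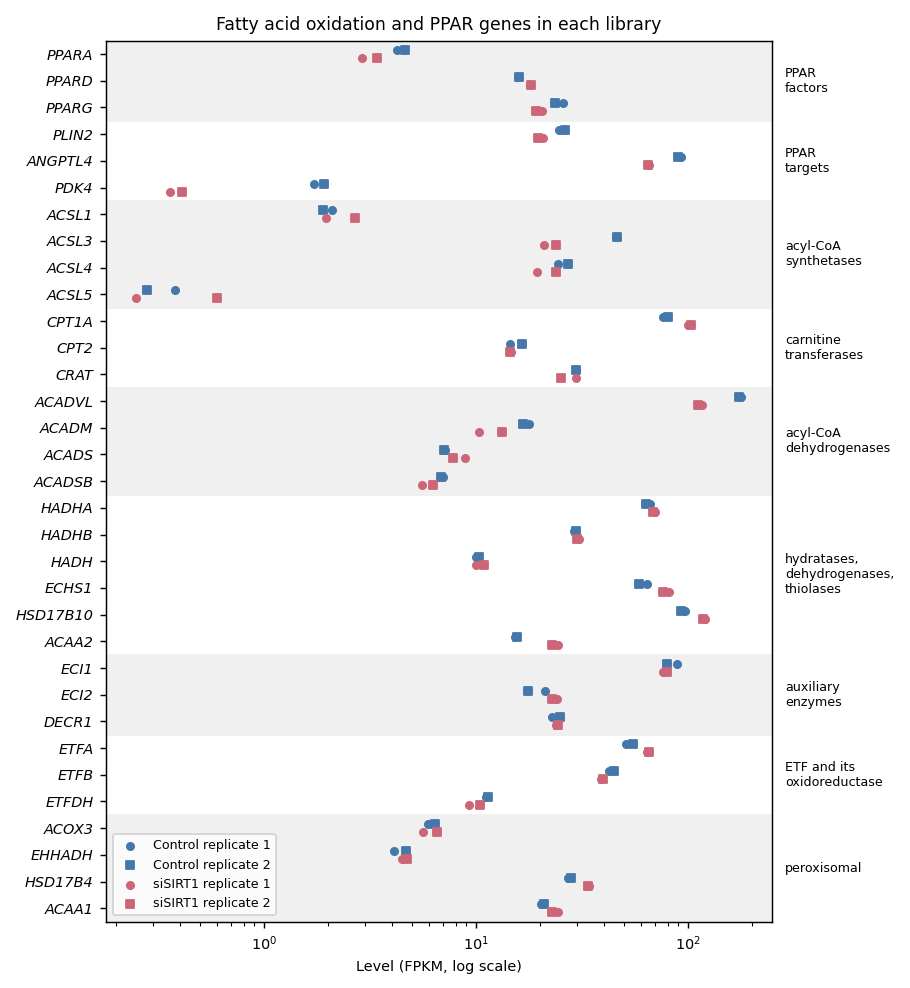
Level of each of the 33 genes in each library (FPKM, log scale), ordered by role. Circles are replicate 1 and squares replicate 2, blue for Control and red for siSIRT1. PDK4 and ACSL3 show the widest gap between the groups, and ACSL5 lies under 1 FPKM in every library.

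Fatty acid oxidation and PPAR genes changed in both directions. Of the 32 members that averaged 1 FPKM or more across the 4 libraries, 15 changed at an adjusted p under 0.05 (limma on log2(FPKM + 1), adjusted over 12191 genes), which was 46.9% of them against 37.1% of all genes tested. CPT1A, ECHS1, HSD17B10, ACAA2, ECI2, ETFA and HSD17B4 rose. PPARA, PPARG, PLIN2, ANGPTL4, PDK4, ACSL3, ACADVL and ACADM fell. Thus 7 of the 32 rose, against a background of 24.0% of all genes, and 8 fell, against a background of 13.1%. The remaining 17 did not pass the test. The median log2 fold change of the members was 0.00, with a range from -1.02 to 0.58, and that of all genes tested was 0.07. Scaling by median of ratios moved the share of rises among all calls from 64.8% to 50.1%, and under it 6 members rose and 10 fell. Without Control replicate 2, 8 members passed in place of 15.

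At the thresholds the study states, a fold change above 1.2 with p under 0.001, here taken as unadjusted, 8 members passed against a background of 18.1%. The p-values are those of the limma fit used here, in which 2207 of all genes tested passed. The study names no test for its RNA-seq and reported more genes at these thresholds, so its own calls may differ. The 8 members were CPT1A, ECHS1, HSD17B10 and ACAA2, which were higher, and ANGPTL4, PDK4, ACSL3 and ACADVL, which were lower. Under median-of-ratios scaling 1 of the members past these thresholds was higher and 6 were lower. In 25 of the 33 members the groups were fully separated, 12 higher and 13 lower in siSIRT1, and 69.0% of all genes tested showed no overlap. The summed level of the 33 genes was 1143 and 1131 FPKM in the Control pair and 1096 and 1094 FPKM in the siSIRT1 pair. In Control, 24 members lay between 10 and 100 FPKM, 8 lay under 10 FPKM and 1, ACADVL, lay above 100 FPKM. The 5 most abundant members in Control were ACADVL, HSD17B10, ANGPTL4, ECI1 and CPT1A. In siSIRT1 they were HSD17B10, ACADVL, CPT1A, ECHS1 and ECI1. ACSL3 moved from rank 9 to rank 17 and ANGPTL4 from rank 3 to rank 7, whereas ACAA2 moved from rank 22 to rank 16.

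**Figure D2:**
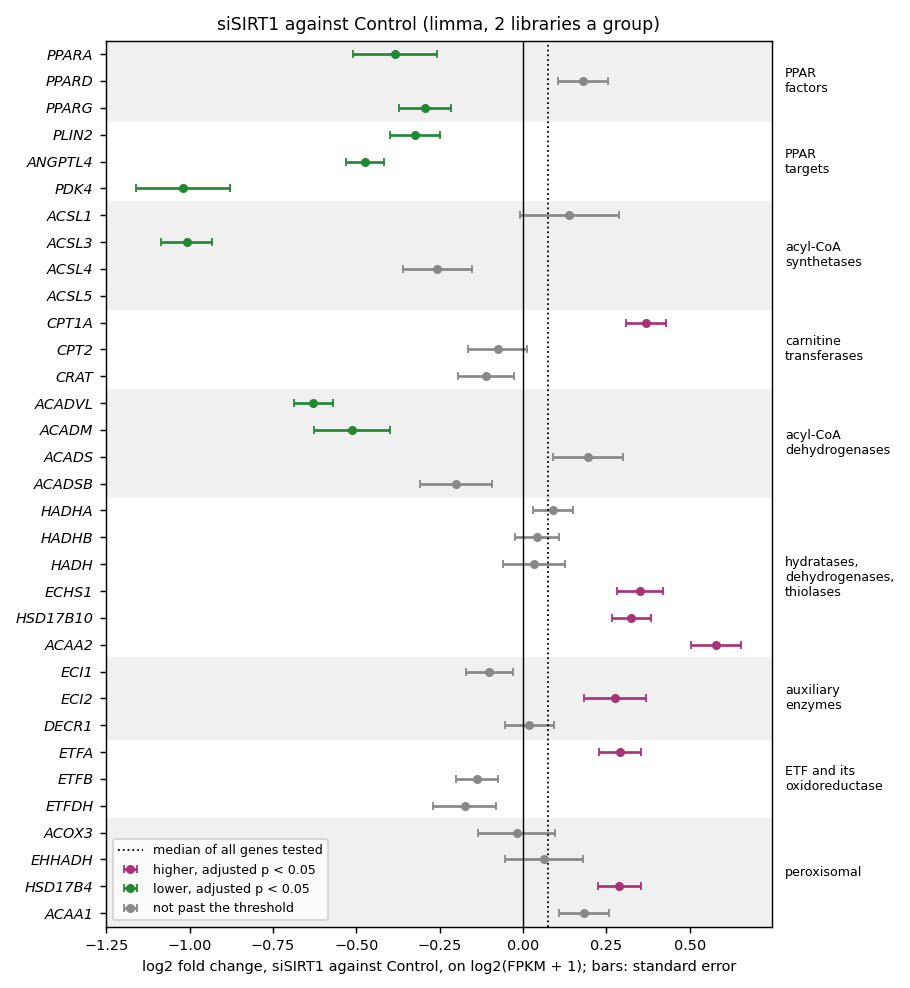
Log2 fold change of siSIRT1 against Control for each of the 32 genes tested, on log2(FPKM + 1), with bars for the standard error (limma, 2 libraries a group). Purple marks 7 genes that rose, green 8 that fell and grey 17 that did not pass an adjusted p of 0.05. The dotted line is the median of all genes tested, 0.07. ACSL5 has no point because it lay below the filter.

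Both PPARA and PPARG fell, and PPARD did not pass the test. PPARG, the receptor best known for fat storage and adipocyte differentiation, was the most abundant of the 3, at 25.6 and 23.5 FPKM without the knockdown and 20.4 and 19.3 FPKM with it. Its highest siSIRT1 value lay below its lowest Control value, and its log2 fold change was -0.29 ± 0.08 (SE, limma, adjusted p = 0.0177). PPARA, which drives fatty acid oxidation genes in the liver, was at 4.23 and 4.6 FPKM in the Control pair and 2.90 and 3.41 FPKM in the siSIRT1 pair. The log2 fold change of PPARA was -0.38 ± 0.13 (SE, adjusted p = 0.0408), and 71.5% of the Control mean remained. PPARD, the most widely expressed receptor of the family, was at 15.7 and 15.9 FPKM in Control, against 17.9 and 18.1 FPKM under siSIRT1. The groups did not overlap for PPARD either, but its log2 fold change of 0.18 ± 0.08 did not pass (adjusted p = 0.0913). The summed level of the 3 receptors went from 45.5 and 43.97 FPKM to 41.2 and 40.8 FPKM. Both calls rested on single libraries. PPARG did not pass without Control replicate 1 (adjusted p = 0.185) or without siSIRT1 replicate 2 (adjusted p = 0.0538). PPARA did not pass without Control replicate 1 (adjusted p = 0.11), Control replicate 2 (adjusted p = 0.226) or siSIRT1 replicate 1 (adjusted p = 0.123), nor without the filter on low values (adjusted p = 0.0909).

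All 3 members listed as PPAR targets fell, where 13.1% of all genes tested were lower. Their median log2 fold change was -0.47. The list is only a part of the genes that PPARs control. Many of those are grouped here under other roles, and the members in those roles changed in both directions. PDK4, the kinase that shuts off pyruvate dehydrogenase and so spares glucose when fatty acids are burned, had, with ACSL3, the largest fall of the 33 genes. It was at 1.71 and 1.91 FPKM without the knockdown and 0.36 and 0.41 FPKM with it, so that 21.3% of the Control mean remained. The log2 fold change was -1.02 ± 0.14 (SE, adjusted p = 0.000833) with a pseudocount of 1 and -1.98 with a pseudocount of 0.1. Under each of the 4 scalings the log2 fold change of ACSL3 was the larger of the pair, for example -1.09 against -1.06 for PDK4 with median-of-ratios scaling. PDK4 was also one of the weakest members, with about 54 reads behind its value in Control replicate 1 and about 11 in siSIRT1 replicate 1. It averaged 1 FPKM or more only through its Control values, and fell below the filter without Control replicate 1 or Control replicate 2. ANGPTL4, a secreted inhibitor of lipoprotein lipase, was far more abundant than PDK4. Its values were 92.2 and 89.4 FPKM in the Control pair against 65.3 and 64.9 FPKM in the siSIRT1 pair, a log2 fold change of -0.47 ± 0.06 (SE, adjusted p = 0.000438). The siSIRT1 libraries lay close together and well below both Control libraries. PLIN2, which coats lipid droplets, was at 24.6 and 26.4 FPKM in the Control pair and 20.7 and 19.6 FPKM in the siSIRT1 pair. PLIN2 fell by 0.32 ± 0.08 on the log2 scale (SE, adjusted p = 0.0101), but it did not pass without Control replicate 2 (adjusted p = 0.12).

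The start regions of the 3 targets that fell are shown because PPAR-responsive genes are often described by the elements in their promoters. Each window runs from 250 bases before to 50 bases after the annotated start (RefSeq, GRCh38.p14), 5′ to 3′ on the strand of the gene. PDK4 is on the minus strand at chr7:95596467-95596766, with a CCAAT box on the opposite strand in capitals. ANGPTL4 is on the plus strand at chr19:8363905-8364204, with a TATAAA in capitals. PLIN2 is on the minus strand at chr9:19127443-19127742, and its capitals mark a CACGTG and a TATAAA read on the opposite strand.
PDK4: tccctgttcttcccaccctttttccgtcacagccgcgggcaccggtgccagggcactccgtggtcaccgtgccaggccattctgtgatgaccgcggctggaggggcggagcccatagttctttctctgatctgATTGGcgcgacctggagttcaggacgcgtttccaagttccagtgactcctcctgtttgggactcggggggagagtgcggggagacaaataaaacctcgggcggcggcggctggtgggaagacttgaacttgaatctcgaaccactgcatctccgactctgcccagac
ANGPTL4: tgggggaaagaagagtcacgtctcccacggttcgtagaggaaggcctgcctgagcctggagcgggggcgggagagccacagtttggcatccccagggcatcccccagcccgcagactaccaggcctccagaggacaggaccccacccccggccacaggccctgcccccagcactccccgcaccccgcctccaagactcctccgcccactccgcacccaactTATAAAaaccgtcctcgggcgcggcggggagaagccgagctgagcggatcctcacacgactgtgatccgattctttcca
PLIN2: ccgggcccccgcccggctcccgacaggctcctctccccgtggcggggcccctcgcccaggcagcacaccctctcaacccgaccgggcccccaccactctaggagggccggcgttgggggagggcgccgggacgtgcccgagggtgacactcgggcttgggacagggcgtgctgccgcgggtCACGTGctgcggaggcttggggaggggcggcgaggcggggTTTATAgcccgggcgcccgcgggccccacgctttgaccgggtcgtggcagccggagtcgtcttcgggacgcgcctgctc
The TATAAA lay 29 bases before the start in both ANGPTL4 and PLIN2, the CACGTG of PLIN2 at 69 bases and the CCAAT of PDK4 at 117 bases. Among 35116 windows of this length in the annotation, 11.5% held TATAAA, 7.3% held CACGTG and 34.6% held CCAAT, on either strand. None of these 3 windows held AGGTCA, the letters of a single PPAR repeat unit, which 13.8% of all windows did. No window of the 3 matched AGGTCANAGGTCA with up to 2 mismatches, and 3.0% of all windows did. The motifs were chosen after the values were seen, and a match or its absence in 300 bases says nothing about binding elsewhere in a gene.

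Across the 28 members with such a window, matches to these motifs were spread over genes that rose, fell and did not pass. CRAT, DECR1, ETFDH, EHHADH and ACAA1 had no window. AGGTCA was found in PPARG and ACSL5, and the repeat, whose letters include AGGTCA, was matched with 2 mismatches in ACAA2 and ACSL1. Over the 9984 genes tested that had a window, 13.7% held AGGTCA and 3.0% the repeat. In ACAA2 the match was AGGTGAAAGGGCA, 76 bases before the start. Of the 28 genes, 5 held TATAAA, against 8.0% of the genes tested that had a window. Of these, ACADVL, ANGPTL4, PLIN2 and PPARG fell, and ACSL1 did not pass. CCAAT was found in 10 of the 28, against 43.1% of the genes tested that had a window. GTAAACA, the letters of a forkhead site, was found in 0, against 3.5% of those genes.

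**Figure D3:**
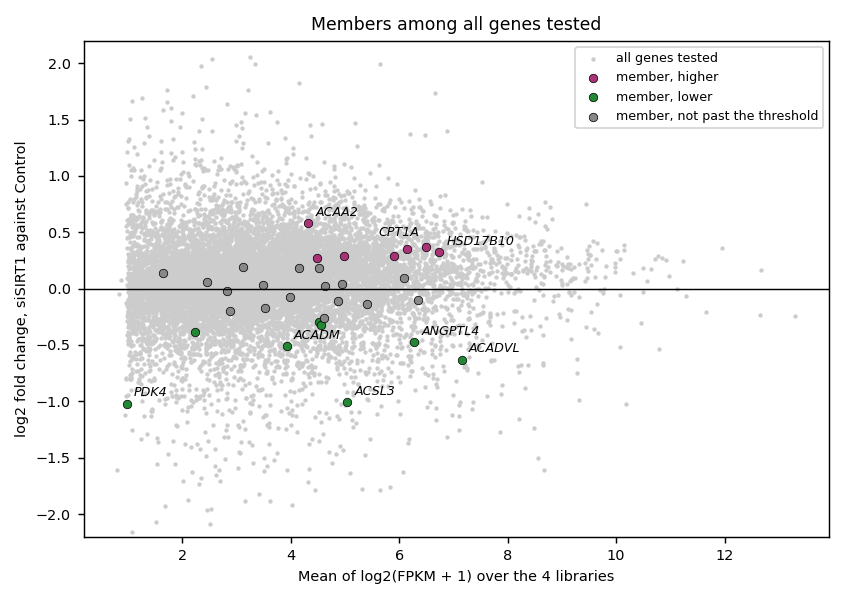
Log2 fold change of siSIRT1 against Control (vertical axis) against the mean of log2(FPKM + 1) over the 4 libraries (horizontal axis). Grey points are the genes tested and outlined points the 32 members, purple where they rose and green where they fell. The vertical axis stops at 2.2 on either side, which leaves out 18 genes. PDK4 and ACSL3 lie lowest of the members and ACAA2 highest.

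Among the acyl-CoA synthetases, which activate free fatty acids, ACSL3 fell and the other members tested did not pass. ACSL3 sits on the endoplasmic reticulum and on nascent lipid droplets and was the most abundant of the 4 in Control. ACSL3 (GRCh37 chromosome 2, 223725660 to 223809357, on the plus strand) lay at 45.5 and 46.3 FPKM in Control, against 20.9 and 23.8 FPKM under siSIRT1. Its mean went from 45.9 ± 0.54 to 22.3 ± 2.03 FPKM (SD, n = 2 each), 48.7% of Control. The log2 fold change was -1.01 ± 0.08 (SE, limma, adjusted p = 4.88e-05), the smallest adjusted p of the 33 genes. ACSL4, which prefers arachidonic acid, was at 24.5 and 27.3 FPKM without the knockdown and 19.3 and 23.8 FPKM with it (log2 fold change -0.26, adjusted p = 0.0856). The siSIRT1 libraries of ACSL4 differed from each other by more than the gap between the groups. ACSL4 passed under median-of-ratios scaling (adjusted p = 0.0314) and without siSIRT1 replicate 2 (adjusted p = 0.0167). ACSL1, the main form in liver and fat, was at 2.08 and 1.90 FPKM in the Control pair and 1.95 and 2.67 FPKM in the siSIRT1 pair, so its groups overlapped (adjusted p = 0.503). ACSL5, at 0.38, 0.28, 0.25 and 0.60 FPKM, was below the filter and was not tested.

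Within a library, ACSL3 held a smaller share of the synthetase pool in both siSIRT1 libraries than in either Control library, and ACSL4 a larger one. The 4 genes summed to 72.4 and 75.7 FPKM in the Control pair and to 42.4 and 50.9 FPKM in siSIRT1. ACSL3 held 62.8% and 61.1% of that sum in Control and 49.3% and 46.7% in siSIRT1. ACSL4 held 33.8% and 36.0% in Control and 45.6% and 46.8% in siSIRT1. ACSL1 held 2.87% and 2.51% against 4.6% and 5.25%. The groups did not overlap in any of these shares. The shares are parts of 1 sum, so a smaller ACSL3 share by itself raises the others, and they are not separate results. In FPKM, ACSL4 was not higher in siSIRT1 and the groups of ACSL1 overlapped. With 2 libraries a group, the exact permutation test cannot go below p = 0.333, two-sided, which each of these shares reached.

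**Figure D4:**
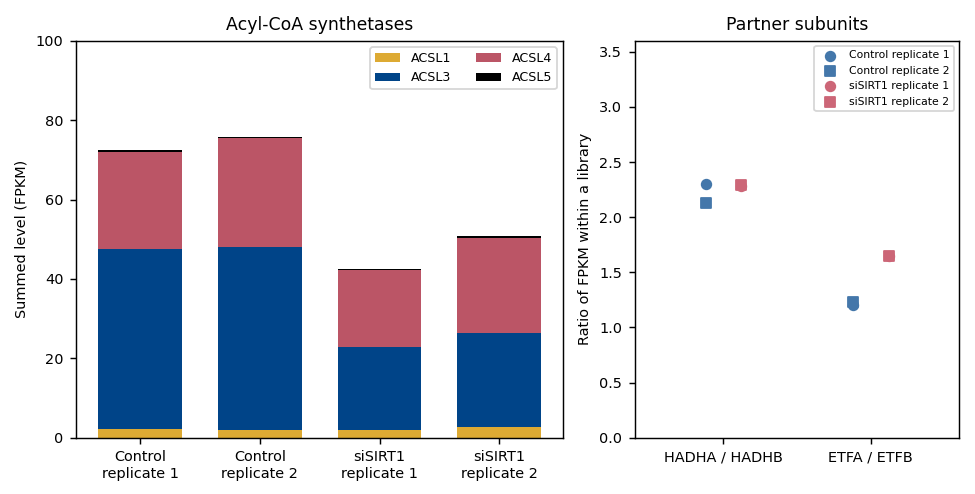
Left, stacked levels of ACSL1, ACSL3, ACSL4 and ACSL5 in each library (FPKM, linear scale from 0). Right, ratio of HADHA to HADHB and of ETFA to ETFB within each library, Control in blue and siSIRT1 in red. The ACSL3 block is smaller in both siSIRT1 libraries, the HADHA to HADHB ratios lie together, and the ETFA to ETFB ratios are higher in both siSIRT1 libraries.

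The start region of ACSL3 is given as the one of the synthetase that fell, on the plus strand at chr2:222860786-222861085 (RefSeq, GRCh38.p14). Capitals mark a CCAAT box 75 bases before the start.
ACSL3: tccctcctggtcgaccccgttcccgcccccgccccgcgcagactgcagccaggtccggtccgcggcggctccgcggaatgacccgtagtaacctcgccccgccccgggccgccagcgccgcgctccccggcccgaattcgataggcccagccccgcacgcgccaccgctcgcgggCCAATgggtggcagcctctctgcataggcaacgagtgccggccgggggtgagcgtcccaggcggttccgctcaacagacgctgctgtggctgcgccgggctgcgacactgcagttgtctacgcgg
This window was 74.0% G and C and held 41 CpG dinucleotides, against 76.7% and 36 in that of PLIN2, 66.3% and 20 in that of ANGPTL4 and 60.7% and 21 in that of PDK4. An antisense gene, ACSL3-AS1, shares 403 exon bases with ACSL3 in the GRCh37 annotation, and whether the counting used strand is not given in the sources used here.

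Of the carnitine acyltransferases, CPT1A rose and CPT2 and CRAT did not pass. CPT1A, the outer-membrane enzyme that sets the rate of fatty acid entry into mitochondria, was at 76.2 and 80.3 FPKM in Control, against 99.8 and 103 FPKM under siSIRT1. Its mean was 1.3 times that of Control, with a log2 fold change of 0.37 ± 0.06 (SE, adjusted p = 0.00175). CPT1A passed in each of the 4 fits that left out 1 library. CPT2, which turns acylcarnitines back into acyl-CoA inside, was at 14.4 and 16.4 FPKM without the knockdown and 14.6 and 14.5 FPKM with it (adjusted p = 0.54). CRAT, which works on short chains, was at 29.6 and 29.5 FPKM in the Control pair and 29.4 and 25.2 FPKM in the siSIRT1 pair (adjusted p = 0.332). In each gene 1 library stood apart from the other 3. The 95% interval of the log2 fold change ran from -0.28 to 0.13 for CPT2 and from -0.30 to 0.08 for CRAT. CRAT passed without siSIRT1 replicate 1 (adjusted p = 0.0446).

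The acyl-CoA dehydrogenases, which start each cycle and differ by the chain length they accept, split by enzyme. ACADVL, the very-long-chain form bound to the inner membrane, was the most abundant member in Control. ACADVL (GRCh37 chromosome 17, 7120444 to 7128585, on the plus strand) lay at 178 and 174 FPKM in Control, against 116 and 111 FPKM under siSIRT1. This was 64.5% of the Control mean, and the log2 fold change was -0.63 ± 0.06 (SE, adjusted p = 0.000116). ACADM, the medium-chain form, was at 17.8 and 16.6 FPKM without the knockdown and 10.3 and 13.3 FPKM with it (log2 fold change -0.51 ± 0.12, adjusted p = 0.00866). Both fell, with no overlap between the groups, although the siSIRT1 values of ACADM lay further apart and ACADM did not pass without the filter on low values (adjusted p = 0.0621). ACADS, the short-chain form, was at 7.16 and 7.08 FPKM in the Control pair and 8.87 and 7.77 FPKM in the siSIRT1 pair (log2 fold change 0.20, adjusted p = 0.176). ACADSB, which acts on short branched chains, was at 6.98 and 6.86 FPKM in Control, against 5.54 and 6.27 FPKM under siSIRT1 (log2 fold change -0.20, adjusted p = 0.182). Neither of these passed, and both lay under 10 FPKM. The summed level of the 4 dehydrogenases went from 210 and 204 FPKM to 141 and 138 FPKM, and ACADVL made up most of it. ACADM shares 157 exon bases with RABGGTB on its own strand.

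Of the 6 enzymes that complete the mitochondrial cycle, 3 rose and 0 fell, where 24.0% of all genes tested were higher and 13.1% lower. ACAA2, the mitochondrial thiolase that releases acetyl-CoA, had the largest rise of the 33 genes. It was at 15.3 and 15.6 FPKM without the knockdown and 24.3 and 22.8 FPKM with it, 1.53 times the Control mean (log2 fold change 0.58 ± 0.08, adjusted p = 0.000634). ECHS1, the short-chain enoyl-CoA hydratase, was at 64.2 and 58.9 FPKM in the Control pair and 81.6 and 76.0 FPKM in the siSIRT1 pair (log2 fold change 0.35 ± 0.07, adjusted p = 0.00445). HSD17B10, a hydroxyacyl-CoA dehydrogenase that also serves in isoleucine breakdown and mitochondrial tRNA processing, was at 96.4 and 92.9 FPKM in Control, against 121 and 117 FPKM under siSIRT1 (log2 fold change 0.32 ± 0.06, adjusted p = 0.00286). In each of these 3 genes both siSIRT1 libraries lay above both Control libraries. On their own strands, ACAA2 shares 385 exon bases and HSD17B10 shares 218 with unnamed genes, so reads there cannot be assigned with certainty. Without Control replicate 2 the adjusted p was 0.0678 for ECHS1 and 0.0598 for HSD17B10, so both calls rested on that library.

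HADHA and HADHB encode the paired subunits of the mitochondrial trifunctional protein, which handles long chains after the first step, and neither passed. HADHA was at 66.4 and 63.3 FPKM without the knockdown and 69.6 and 68.6 FPKM with it (log2 fold change 0.09, 95% interval -0.05 to 0.23, adjusted p = 0.269). HADHB was at 28.9 and 29.7 FPKM in the Control pair and 30.5 and 29.9 FPKM in the siSIRT1 pair (log2 fold change 0.04, 95% interval -0.11 to 0.19, adjusted p = 0.665). The HADHA to HADHB ratio within a library was 2.30 and 2.13 in the Control pair and 2.28 and 2.30 in the siSIRT1 pair (exact permutation test, two-sided, p = 1.0). The upper ends of both intervals lay below the log2 fold change of CPT1A, 0.37. HADH, the dehydrogenase for medium and short chains, was at 10 and 10.3 FPKM in Control, against 9.99 and 10.8 FPKM under siSIRT1, so its groups overlapped (adjusted p = 0.808).

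The paired genes for the trifunctional protein lie head to head, and the start region of HADHA is given because it is shared. Their annotated starts are 307 bases apart on opposite strands (RefSeq, GRCh38.p14). The window of HADHA is on the minus strand, at chr2:26244583-26244882, and the capitals mark the 194 bases that also lie in the window of HADHB, read there on the other strand.
HADHA: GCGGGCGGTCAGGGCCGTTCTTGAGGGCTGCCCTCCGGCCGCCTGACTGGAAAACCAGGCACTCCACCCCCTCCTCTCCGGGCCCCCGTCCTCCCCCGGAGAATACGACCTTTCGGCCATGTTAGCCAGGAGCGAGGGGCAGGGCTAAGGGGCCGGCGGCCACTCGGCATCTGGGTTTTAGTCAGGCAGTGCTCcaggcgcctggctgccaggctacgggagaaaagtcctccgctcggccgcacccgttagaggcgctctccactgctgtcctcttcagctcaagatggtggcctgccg
The annotated spans of the pair also overlap at their 5′ ends in GRCh37, although no exon bases are shared.

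Of the auxiliary enzymes that move or remove double bonds, ECI2 rose by the weakest call of the set. ECI2, an enoyl-CoA isomerase, was at 21.0 and 17.6 FPKM without the knockdown and 24.2 and 22.9 FPKM with it (log2 fold change 0.28 ± 0.09, adjusted p = 0.0467). It did not pass under any of the 4 scalings, where its adjusted p ran from 0.098 to 0.165, or without Control replicate 2 (0.392), siSIRT1 replicate 1 (0.153) or siSIRT1 replicate 2 (0.0745). ECI1, its mitochondrial paralog, was at 88.7 and 79.2 FPKM in the Control pair and 76.3 and 79.9 FPKM in the siSIRT1 pair (adjusted p = 0.296). DECR1, the mitochondrial dienoyl-CoA reductase, was at 22.7 and 24.8 FPKM in Control, against 23.8 and 24.3 FPKM under siSIRT1 (adjusted p = 0.867). In both ECI1 and DECR1 the groups overlapped.

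The electron transfer flavoprotein takes electrons from the acyl-CoA dehydrogenases, and its subunit genes differed. ETFA was at 51.1 and 54.7 FPKM without the knockdown and 64.3 and 65.7 FPKM with it, a rise of 0.29 ± 0.06 on the log2 scale (SE, adjusted p = 0.00707). ETFB was at 42.4 and 44.5 FPKM in the Control pair and 39.0 and 39.8 FPKM in the siSIRT1 pair (log2 fold change -0.14 ± 0.06, adjusted p = 0.125). Within a library the ETFA to ETFB ratio was 1.21 and 1.23 in the Control pair and 1.65 and 1.65 in the siSIRT1 pair, a gap far wider than the spread in either group (exact permutation test, two-sided, p = 0.333, the smallest that 2 against 2 allows). ETFB passed, as lower, under each of the 4 scalings, with an adjusted p from 0.0314 to 0.0467. ETFA did not pass without Control replicate 1 (adjusted p = 0.114). ETFDH, the oxidoreductase that hands the electrons on to ubiquinone, was at 11.2 and 11.3 FPKM in Control, against 9.26 and 10.5 FPKM under siSIRT1 (log2 fold change -0.17, adjusted p = 0.186). ETFDH shares 1427 exon bases with PPID on the opposite strand, and ETFB shares 337 with an unnamed gene on its own strand, so reads there cannot be assigned with certainty.

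In the peroxisome, HSD17B4 rose and the other 3 genes did not pass. HSD17B4, the D-bifunctional protein that does both middle steps, was at 27.1 and 28.2 FPKM without the knockdown and 34.1 and 33.9 FPKM with it (log2 fold change 0.29 ± 0.07, adjusted p = 0.0089). Its call ended without Control replicate 1 (adjusted p = 0.103) and without Control replicate 2 (adjusted p = 0.0565), whereas the value stayed at 0.26 and 0.31 on the log2 scale. ACAA1, the peroxisomal thiolase, was at 20.3 and 21.0 FPKM in the Control pair and 24.3 and 22.8 FPKM in the siSIRT1 pair (log2 fold change 0.18, adjusted p = 0.0835). EHHADH, the L-bifunctional protein and a PPARA target in liver, was at 4.11 and 4.65 FPKM in Control, against 4.48 and 4.74 FPKM under siSIRT1 (adjusted p = 0.714). ACOX3, an oxidase for branched chains, was at 5.91 and 6.43 FPKM without the knockdown and 5.62 and 6.55 FPKM with it (adjusted p = 0.912). EHHADH and ACOX3 overlapped between the groups and were the least abundant of the 4. ACAA1 shares 1403 exon bases with DLEC1 on the opposite strand, and HSD17B4 shares 182 with FAM170A on its own strand.

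The other genes of the pathway were taken from lists of 77 genes, of which 70 were listed and 55 averaged 1 FPKM or more. Of these, 25 passed (45.5%, against 37.1% of all genes tested), 13 higher and 12 lower (against 24.0% and 13.1%), and their median log2 fold change was 0.07, as over all genes. Under median-of-ratios scaling 20 passed, 8 higher and 12 lower, and without Control replicate 1 or 2 the number was 13 or 11. Of the 11 genes of uptake, activation and import, 7 passed, 6 of them higher, beside the same background. FABP5, a fatty acid binding protein of the cytosol, was at 18.2 and 19.9 FPKM in the Control pair and 40.5 and 37.2 FPKM in the siSIRT1 pair (log2 fold change 0.99, adjusted p = 5.74e-05). SLC25A20, the carnitine-acylcarnitine carrier that works between CPT1A and CPT2, was at 6.32 and 6.13 FPKM in Control, against 9.51 and 8.93 FPKM under siSIRT1 (log2 fold change 0.50, adjusted p = 0.00476). SLC27A5, a bile acid and very-long-chain acyl-CoA synthetase, was at 2.00 and 1.76 FPKM without the knockdown and 3.09 and 3.05 FPKM with it (log2 fold change 0.50, adjusted p = 0.0148). FABP5 and SLC25A20 passed without each library in turn, whereas SLC27A5 did not pass without Control replicate 2 (adjusted p = 0.113). SLC27A1, a fatty acid transport protein, was the exception that fell, from 16.4 and 15.97 FPKM to 7.27 and 6.55 FPKM (log2 fold change -1.12, adjusted p = 7.11e-05).

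Of the other genes listed as PPAR targets, 3 of 6 passed and all 3 were lower, where 13.1% of all genes tested were lower. The median log2 fold change of the 6 was -0.49. This list too leaves out genes under PPAR control that are grouped under other roles, so it does not stand for PPAR targets as a class. PLIN4, a lipid droplet protein related to PLIN2, was at 10.4 and 10.95 FPKM in the Control pair and 3.03 and 3.16 FPKM in the siSIRT1 pair, 29.1% of the Control mean (log2 fold change -1.51, adjusted p = 3.04e-05). UCP2, a carrier of the inner mitochondrial membrane, was at 39.3 and 39.5 FPKM in Control, against 21.0 and 17.9 FPKM under siSIRT1 (log2 fold change -0.99, adjusted p = 8.43e-05). VLDLR, the lipoprotein receptor that was the other one to fall, was at 1.62 and 1.77 FPKM without the knockdown and 0.58 and 0.61 FPKM with it (log2 fold change -0.76, adjusted p = 0.00326), and it was named after its values were seen. VLDLR averaged 1 FPKM or more only through its Control values, and fell below the filter without Control replicate 1 or Control replicate 2. The remaining 3 targets did not pass. CIDEC, a lipid droplet protein, was at 1.81 and 1.79 FPKM in the Control pair and 2.22 and 4.2 FPKM in the siSIRT1 pair, with no overlap (log2 fold change 0.55, adjusted p = 0.0703). The log2 fold change was -0.22 for PLIN5 (adjusted p = 0.279) and 0.06 for ADIPOQ (adjusted p = 0.782). Canonical targets of liver and fat were scarce here: FABP1 was listed at 0 in each library, and FABP3, CD36 and PLIN1 stayed at or under 0.41 FPKM. Also below the filter, UCP3 went from 0.24 and 0.44 FPKM in Control to 1.23 and 0.7 FPKM in siSIRT1. CREB3L3 went from 0.28 and 0.28 FPKM to 0.46 and 0.51 FPKM. FGF21 went down, from 0.54 and 0.62 FPKM to 0.09 and 0.18 FPKM, and the groups of CYP4A11 overlapped.

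Of the PPAR partners and cofactors, 4 of 10 passed, 3 of them higher, a share near the 37.1% of all genes tested. NCOR1, a corepressor, was at 28.1 and 29.0 FPKM in the Control pair and 18.3 and 21.4 FPKM in the siSIRT1 pair (log2 fold change -0.51, adjusted p = 0.00242). RXRA, the heterodimer partner, was at 10.9 and 10.6 FPKM in Control, against 13.0 and 13.7 FPKM under siSIRT1 (log2 fold change 0.29, adjusted p = 0.0287). PPARGC1B, a coactivator, was at 1.06 and 1.13 FPKM without the knockdown and 1.68 and 2.03 FPKM with it (log2 fold change 0.44, adjusted p = 0.0357). These genes too were named after their values were seen, and RXRA and PPARGC1B each passed in 4 of 8 alternatives that kept all libraries. Without Control replicate 1, Control replicate 2 or siSIRT1 replicate 2, the adjusted p was 0.117, 0.184 and 0.0706 for RXRA and 0.161, 0.12 and 0.11 for PPARGC1B. PPARGC1A, the coactivator best known as a SIRT1 substrate, was at 0.17, 0.20, 0.21 and 0.66 FPKM and was not tested. Among 13 other mitochondrial acyl-CoA enzymes 3 were higher and 3 lower, and among 15 other peroxisomal genes 1 was higher and 4 were lower. Over all genes tested, 24.0% were higher and 13.1% lower. Of the 4 lower peroxisomal genes, ACOX2 averaged 1 FPKM or more only through its Control values. It was at 2.85 and 2.08 FPKM in Control, against 0.77 and 0.85 FPKM under siSIRT1.

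**Figure D5:**
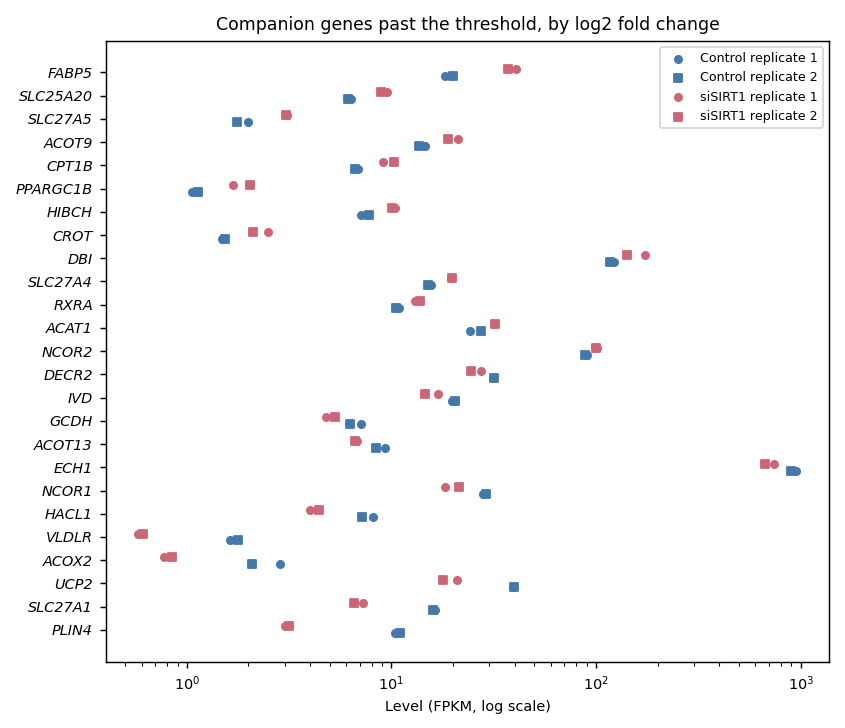
Levels in each library (FPKM, log scale) of the 25 other pathway genes with an adjusted p under 0.05, ordered from the largest log2 fold change at the top to the smallest at the bottom. Blue is Control and red siSIRT1, circles replicate 1 and squares replicate 2. FABP5 is the largest rise, and PLIN4, SLC27A1 and UCP2 are the largest falls.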

How the data were processed

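RNA-seq values of PANC-1 cells were used from 2 Control and 2 siSIRT1 libraries, grouped by the labels. The authors deposited 1 table of FPKM per library, with 2 decimals, for 16878 genes. The labels name Bowtie2, HISAT and RSEM without role or version. The RNA-seq genome build, the use of strand and the assignment of shared reads are not given in the sources used here.

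Because the values were FPKM and not counts, no count test was run. The 12191 genes averaging 1 FPKM or more across the 4 libraries were tested on log2(FPKM + 1) with limma 3.58.1 in R 4.3.3 (lmFit, eBayes with a trend, two-sided), with Benjamini-Hochberg adjustment over all of them and a threshold of 0.05. This scale understates changes of weak genes. The procedure was checked on simulated data. Ratios within a library were tested by exact permutation. The members, lists and tests were chosen with earlier results of these data known. All members and SIRT1 are named, and of the other pathway genes the 3 largest rises and 3 largest falls past the threshold. Any further pathway gene was picked with its values in view.

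Depth was estimated from the steps of low FPKM values in single-exon genes, and reads behind a gene are approximate. Gene positions are from GENCODE release 44 on GRCh37 and promoters from RefSeq GRCh38.p14. In the GRCh37 annotation, 17 members share exon bases with another gene and 4 have pseudogenes of their name (HADHA, HADHB, ACAA2 and ACSL3), where reads may be split. The alternatives were a pseudocount of 0.1, no filter, 4 scalings (quantile, median of ratios, upper quartile, equal FPKM sums), the replicate number as a block, eBayes without trend and leaving out each library.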

Additional observations from a re-analysis of the deposited data

How the results depend on the processing

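The members past the threshold numbered 15, and from 12 to 16 under 8 alternatives that kept all libraries. They ranged from 8 to 14 when 1 library was left out, all genes past the threshold from 2710 to 4582, and other pathway genes from 11 to 24, where the lone library is assumed to vary like the other group. The lowest counts came without Control replicate 2, and without Control replicate 1 the counts were 10, 2808 and 13. ANGPTL4, PDK4, ACSL3, CPT1A, ACADVL and ACAA2 kept their call and direction in every alternative that gave a value. PDK4 fell below the filter without either Control library. The other 9 called members lost the call in at least 1 of 12 alternatives, and 0 changed sign. The median log2 fold change of the members was -0.06 with quantile normalization, -0.077 with median-of-ratios scaling, -0.071 with upper-quartile scaling, -0.057 with equal FPKM sums, and from -0.02 to 0.052 without 1 library. The ETFA to ETFB difference was 0.419 to 0.442 without 1 library.

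Some uncalled members changed sign. With quantile normalization, median-of-ratios scaling, upper-quartile scaling and equal FPKM sums, in that order, the log2 fold change was -0.038, -0.041, -0.034 and -0.02 for HADHB, -0.03, -0.044, -0.038 and -0.024 for HADH, and -0.061, -0.062, -0.055 and -0.041 for DECR1. EHHADH was at -0.007 with median-of-ratios and -0.001 with upper-quartile scaling. Without 1 library the range was -0.019 to 0.296 for ACSL1, -0.163 to 0.011 for CPT2, -0.021 to 0.087 for HADH, -0.04 to 0.078 for DECR1, -0.114 to 0.075 for ACOX3 and -0.011 to 0.134 for EHHADH. The cause was not tested.

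With the replicate number as a block, 16 members and 5393 genes passed, with ACSL4 added (adjusted p = 0.00985), CIDEC had an adjusted p of 0.013, and 12 members met a fold above 1.2 with p under 0.001. The labels name no culture or day that same-numbered libraries share. Their deviations correlated at 0.123 over genes, which with 2 pairs does not settle whether they are paired. Depth limits PDK4, with about 11 reads in siSIRT1 replicate 1, and ACSL5, with about 7.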
